A study of Rattus norvegicus with 458 samples.

Results

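The miR-29 family was followed through a small RNA sequencing atlas of the rat. A name belonged to the family when 1 of its parts was miR-29a, miR-29b or miR-29c with any arm suffix and without the ending that marks a precursor, and 14 of the 7534 names in the deposited table met this rule. Of the 14, 7 are single mature names and 7 are composite names, given by the authors to sequences that fit more than 1 miRNA. All rats were naive Sprague Dawley rats, 12 to 13 weeks old, and no group received a treatment. Each of 19 tissues was sampled from 10 rats, of which 5 were males, and ovary, uterus and testis were sampled from 5 rats each. The dorsal root ganglia came as 2 pools of 5 rats, 1 for each sex, and the 5 technical libraries of a pool were summed. According to the authors the RNA of the ganglia came from Takeda Pharmaceuticals, and it has no integrity value. For the ganglia, tissue and source of the RNA cannot be told apart. In all, 215 libraries gave 207 samples of 23 tissues. Library totals lay between 376401 and 17725805 counts, with a median of 4816409, and the testis libraries were the smallest.

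The members of the miR-29 family are made from a pair of loci, each of which holds a miR-29b hairpin beside a second hairpin. The 3p arms are the main products and share a seed, the stretch at the 5′ end by which a miRNA finds its targets. The family is best known for lowering collagens and other matrix proteins, and it is abundant in mature brain, heart and kidney. In bulk tissue fewer cells of a type and less RNA per cell cannot be told apart.

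The 3p arms are shown because 1 base separates the product of 1 locus from that of the other. Sequences were taken from RefSeq (assembly GRCr8), in which all 7 single names were found, with the seed (bases 2 to 8) in capitals.
miR-29a-3p: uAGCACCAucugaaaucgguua
miR-29b-3p: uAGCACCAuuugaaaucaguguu
miR-29c-3p: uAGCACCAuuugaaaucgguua
Counted from the 5′ end, miR-29a-3p and miR-29c-3p differ by C10U, and miR-29c-3p and miR-29b-3p by G18A, U21G and A22U. The 3 arms thus have the same seed, AGCACCA. The 5p arms, given for contrast, have 4 different seeds as annotated. Most reads of miR-29b-1-5p and part of those of miR-29c-5p start elsewhere, as given below, and so carry other seeds.
miR-29a-5p: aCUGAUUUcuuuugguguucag
miR-29b-1-5p: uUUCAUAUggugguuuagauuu
miR-29b-2-5p: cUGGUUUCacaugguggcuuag
miR-29c-5p: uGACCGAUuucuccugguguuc

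The 4 hairpins show which arms tell the loci apart. Mir29a (chr4:60617955-60618042) and Mir29b1 (chr4:60618334-60618414) lie 291 bases apart on the minus strand. Mir29b2 (chr13:109098831-109098911) and Mir29c (chr13:109099359-109099446) lie 447 bases apart on the plus strand. The coordinates are those of GRCr8, and the mature arms are in capitals.
Mir29a: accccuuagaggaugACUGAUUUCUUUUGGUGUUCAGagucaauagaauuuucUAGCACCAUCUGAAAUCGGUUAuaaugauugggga
Mir29b1: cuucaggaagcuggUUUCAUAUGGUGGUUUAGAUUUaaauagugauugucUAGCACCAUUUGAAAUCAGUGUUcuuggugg
Mir29b2: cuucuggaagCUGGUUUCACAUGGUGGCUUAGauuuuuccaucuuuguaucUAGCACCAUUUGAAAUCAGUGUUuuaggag
Mir29c: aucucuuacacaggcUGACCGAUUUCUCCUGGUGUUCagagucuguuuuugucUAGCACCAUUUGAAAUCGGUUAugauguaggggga
The 3p arm of miR-29b is the same from both of its hairpins, so its reads cannot be assigned to a locus, whereas the 5p arms of the miR-29b hairpins differ. The ratio of miR-29a-3p to miR-29c-3p and the ratio of miR-29b-1-5p to miR-29b-2-5p are therefore 2 readouts of the same pair of loci.

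The family took 3579904 of 1050166585 counts, or 0.341%. miR-29a-3p held 84.0% of them, miR-29c-3p 11.3% and miR-29b-3p 3.16%. The authors state that ligase bias, by which some miRNAs may be over- or under-represented, affected quantification here. Shares and ratios between different sequences are thus those of counts, not of amounts. The 5p arms were rare, with 15710 counts of miR-29c-5p, 7793 of miR-29a-5p, 4497 of miR-29b-2-5p and 2550 of miR-29b-1-5p. The largest composite name, miR-29a-3p;miR-29c-3p, had 21594 counts. Of the 14 members, 10 passed the filter on low counts, and the 4 that did not were composites with 178, 7, 6 and 1 counts.

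Tissue labels were checked on all names before the members were described. In 10 of the 215 libraries the profile was nearer to another tissue than to the label. The duodenum held 4 of them (rats 2, 4, 7 and 11) and the hippocampus 3 (rats 2, 6 and 7), and 1 each came from the adrenal (rat 8), the uterus (rat 8) and the ovary (rat 11). They were kept under their labels, and results of these 5 tissues are given with and without them. Defining miRNAs marked the other tissues, such as liver with 33950 CPM (the count of a name scaled to the same total in every sample) of miR-122-5p against at most 15.7 in any other tissue, and heart with 463 CPM of miR-208a-3p against at most 1.90. RNA integrity (RIN) was lowest in the pancreas, at 6.12 ± 0.569 (SD, n = 10), and between 7.20 and 8.84 in the means of the other tissues with a value. Part of the libraries, among them those of the pancreas, are labelled as re-extracted.

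After the data had been seen, 2 of 23 sequencing lanes were found to misread bases of the family. In the first, with runs of 13 libraries, 8.46% to 9.73% of the 3p counts of miR-29a and miR-29c fell to their composite name, against a median of 0.0466% in 317 runs elsewhere. At base 10, where miR-29b-3p has a T, G or A was read in 12.4% of its reads in this lane and in 0.0623% elsewhere. This lane gave 86.5% of all counts of that composite. In the second lane, with runs of 14 libraries, 45.8% to 55.1% of the miR-29c-3p reads began with an extra base other than C in the 13 runs with at least 100 counts, against at most 0.385% elsewhere. The share of miR-29c-3p in the sum of miR-29a-3p and miR-29c-3p was 12.0% in the first lane and 11.6% in the other runs of the same libraries (exact sign flip test, two-sided, p = 0.0725), and 10.3% against 10.7% for the second (p = 0.133). Levels and ratios were computed with all lanes, and read ends without these 2. Tests on so few libraries do not show that the lanes left the share unchanged. Without the 2 lanes some calls of members were lost, such as those of miR-29a-3p in the kidney cortex and the soleus.

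The family was most abundant in the brain and least abundant in whole blood, in CPM. In the cerebrum the 10 samples lay between 9734 and 13602 CPM with a median of 12472, in the hippocampus between 1373 and 12423 (median 11608) and in the brainstem between 6694 and 10633 (median 7543). The cerebellum followed with 5804 to 7762 CPM (median 6674). No sample of a tissue outside the brain reached the lowest cerebellum sample except in the duodenum, where the 3 samples that did were libraries out of place.

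At the other end, whole blood held between 8.12 and 144 CPM (median 37.2), the non-glandular stomach between 383 and 809 (median 523) and the jejunum between 648 and 1050 (median 815). The highest blood sample was thus below the lowest of every other tissue. As means, the family was at 12327 ± 1089 CPM in the cerebrum and at 44.6 ± 37.5 in whole blood (SD, n = 10 each).

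Between these ends the means formed a graded series. After the cerebrum came the hippocampus (8978 ± 4874), the brainstem (7822 ± 1225), the cerebellum (6826 ± 695), the duodenum (4016 ± 4349), the liver (4007 ± 457) and the heart (3493 ± 350). The testis (3334 ± 394), the ganglia (3036 and 3129 in the pools), the ovary (2989 ± 1025), the kidney cortex (2987 ± 611), the pancreas (2955 ± 642), the adrenal (2946 ± 780), the kidney medulla (2808 ± 438) and the whole kidney (2629 ± 551) lay close together. Soleus (1741 ± 164), biceps femoris (1292 ± 202), uterus (1226 ± 165), glandular stomach (1018 ± 231), ileum (918 ± 130), jejunum (817 ± 132) and non-glandular stomach (541 ± 114) completed the order above blood. The muscles thus ranked soleus over biceps, and the stomach, ileum and jejunum below the other solid tissues.

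Without the 10 libraries out of place the hippocampus was at 11981 ± 534 CPM (n = 7), close to the cerebrum, and the duodenum at 1403 ± 118 (n = 6), between the biceps and the soleus. The ovary moved to 3390 ± 569 (n = 4), the adrenal to 3132 ± 545 (n = 9) and the uterus to 1186 ± 160 (n = 4).

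**Figure D1:**
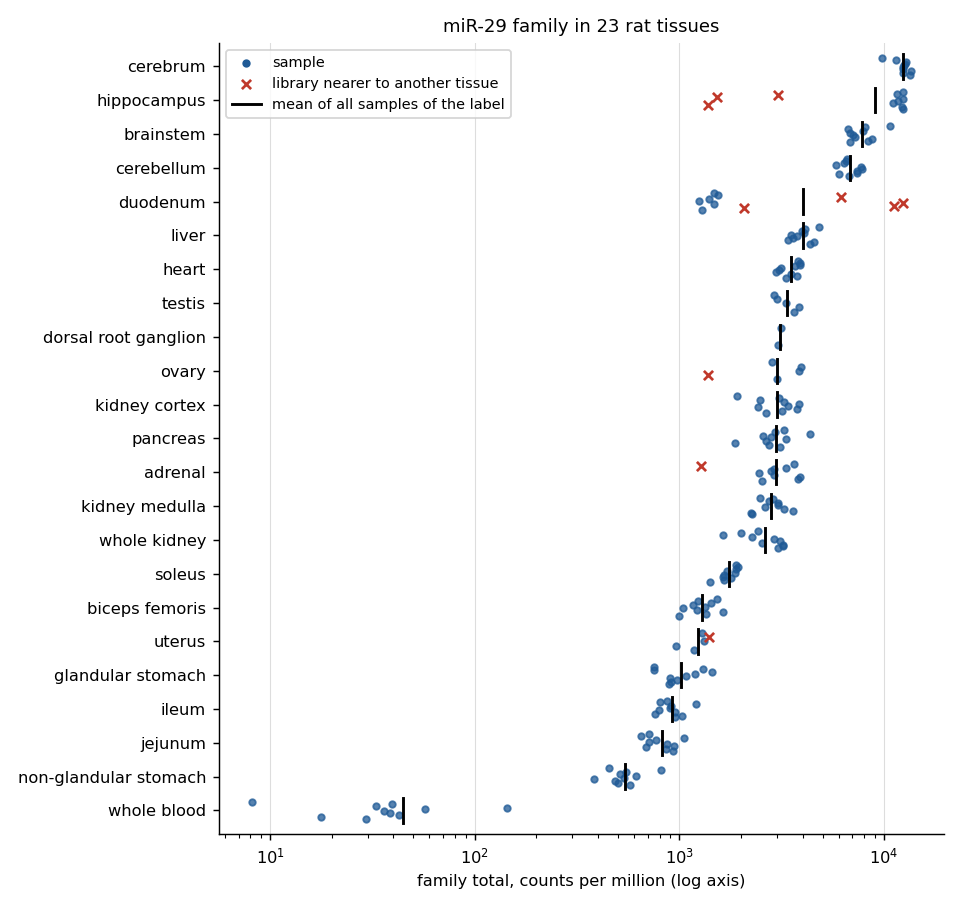
Sum of the 14 members in CPM (horizontal log axis) in each sample of the 23 tissues, ordered by mean. Points are samples, crosses the libraries whose profile is nearer to another tissue, and black bars the mean of all samples of a tissue. The cerebrum mean is 12327 and the whole blood mean 44.6, and the hippocampus and duodenum are each split by the crosses.

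Of the 253 pairs of tissues, 198 differed in the family total, on the log2(CPM + 1) scale (two-sided exact permutation test, Benjamini-Hochberg adjusted p under 0.05 over the pairs). Without the libraries out of place the count was 215. Between neighbours in the order of the log2 means, the cerebrum exceeded the brainstem by 0.67 (adjusted p = 5.0e-05, exact permutation), the cerebellum the liver by 0.77 (2.6e-05), the liver the heart by 0.20 (0.0167), the whole kidney the soleus by 0.57, the soleus the biceps by 0.44, the jejunum the non-glandular stomach by 0.60, and this the blood by 3.88. The other neighbours did not differ beyond their spread, among them the whole chain from the heart down to the whole kidney, although members of this chain farther apart did. The heart exceeded the whole kidney by 0.43 (adjusted p = 0.00088), the kidney medulla by 0.32 (0.0025) and the pancreas by 0.26 (0.029, all exact permutation tests). Of the spread of log2 values over all samples, 92.2% lay between tissues, and 97.3% without the libraries out of place.

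The rank of the brain depended on the scaling. A few names fill some of the libraries, and the most counted one alone took 85.2% of the counts in whole blood, 84.1% in the non-glandular stomach and 14.8% in the cerebrum. When totals were scaled by the upper quartile of the names, the order became liver (4881 ± 1661 scaled CPM), heart (4371 ± 808), cerebrum (3878 ± 844) and kidney medulla (3796 ± 888), with the brainstem at 2046 ± 413 and whole blood still lowest at 272 ± 166. Under this scaling 42 of the 198 called pairs changed direction. With TMM scaling the cerebrum stayed highest (6108 ± 1329) and 16 pairs changed direction, and with the most counted name left out of the total it was 14. The ratios below are taken within a sample and do not depend on scaling.

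In counts, miR-29a-3p, the 3p arm of the chromosome 4 locus, exceeded miR-29c-3p, that of the chromosome 13 locus, in all 207 samples. The factor differed with the tissue. In the kidney cortex there were between 3.96 and 5.60 counts of miR-29a-3p per count of miR-29c-3p (median 4.83), in the biceps femoris between 4.71 and 5.63 (median 5.23) and in the cerebellum between 4.74 and 5.72 (median 5.20). At the top, whole blood had ratios of 8.32 to 48.7 (median 24.3) and the uterus of 8.91 to 22.4 (median 20.9). No uterus sample lay within the range of the kidney cortex, the biceps or the cerebellum.

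The mean ratio was 4.87 ± 0.510 in the kidney cortex, 5.18 ± 0.322 in the biceps, 5.23 ± 0.293 in the cerebellum, 5.39 ± 0.434 in the whole kidney, 6.24 ± 0.446 in the heart, 6.69 ± 0.428 in the brainstem, 6.79 ± 0.546 in the kidney medulla and 7.14 ± 0.904 in the soleus. A middle group held the liver (8.72 ± 1.20), duodenum (8.98 ± 1.19), cerebrum (9.07 ± 2.02), hippocampus (9.15 ± 3.23), pancreas (9.42 ± 1.13) and glandular stomach (9.86 ± 0.819). Above 10 lay the jejunum (10.5 ± 0.810), ovary (11.6 ± 1.62), adrenal (11.8 ± 1.28), non-glandular stomach (11.8 ± 1.05), testis (12.1 ± 1.13), ileum (12.2 ± 1.10) and ganglia (12.7 ± 0.691), and then the uterus (18.1 ± 5.66) and whole blood (24.9 ± 12.3). As a share of both arms, miR-29c-3p ran from 17.2% ± 1.53 in the kidney cortex to 4.56% ± 2.63 in blood.

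**Figure D2:**
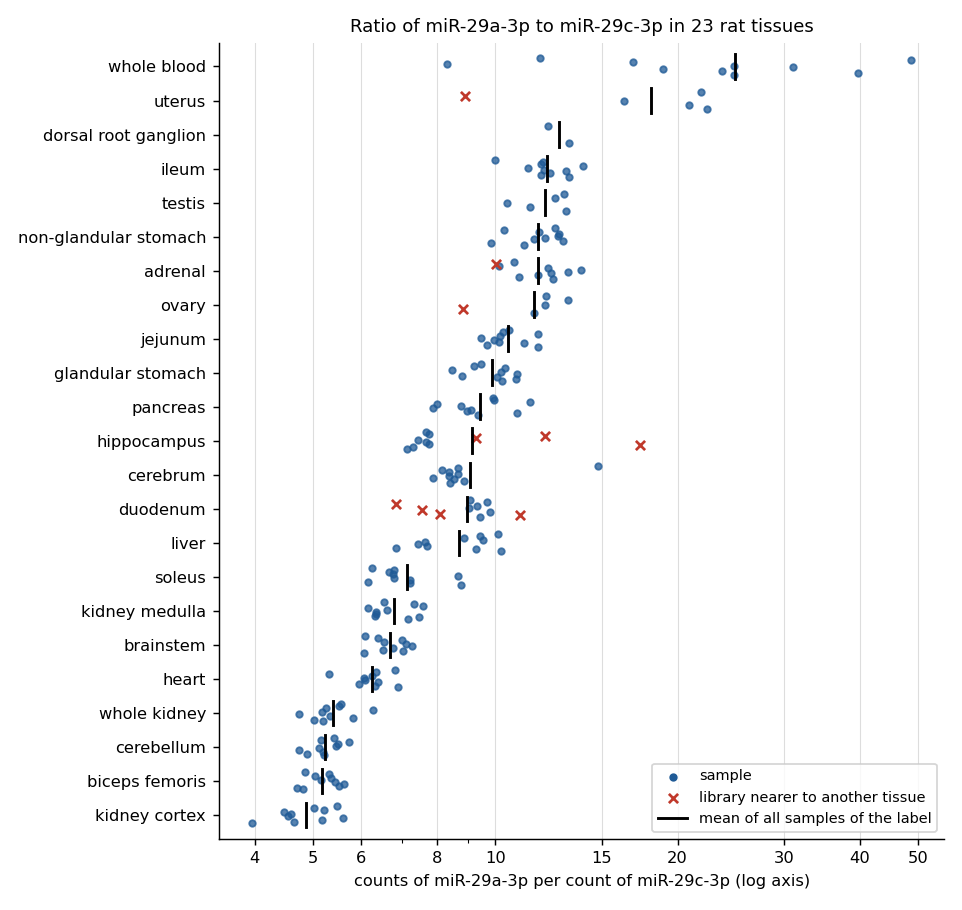
Counts of miR-29a-3p per count of miR-29c-3p (horizontal log axis) in each sample of the 23 tissues, ordered by mean. Points are samples, crosses the libraries nearer to another tissue, and black bars the means. The kidney cortex has the lowest mean (4.87) and whole blood the highest (24.9), and 1 cerebrum sample stands apart at 14.8.

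Without the libraries out of place the ratio of the uterus was 20.4 ± 2.77 (n = 4), that of the hippocampus 7.54 ± 0.249 (n = 7), that of the ovary 12.2 ± 0.680 (n = 4), that of the adrenal 12.0 ± 1.19 (n = 9) and that of the duodenum 9.39 ± 0.305 (n = 6). In whole blood the ratio rests on few reads, since its samples held 2 to 95 counts of miR-29c-3p (median 7.5) and 41 to 794 of miR-29a-3p (median 216.5). Counting error alone is thus large there.

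1 cerebrum sample stood apart. In rat 9 the ratio was 14.8, against 7.88 to 8.87 in the other 9 cerebrum samples, and miR-29b-3p made up 1.43% of the 3p arms, against 3.56% to 4.63%. Its runs, sequenced separately, both had ratios of at least 13.4. Without it the cerebrum ratio was 8.44 ± 0.294 (n = 9).

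Of the 253 pairs of tissues 205 differed in the log2 ratio (two-sided exact permutation test, adjusted over the pairs), and 214 did without the libraries out of place. Parts of 1 organ differed: the kidney cortex lay 0.48 below the medulla (adjusted p = 3.3e-05, exact permutation), and the biceps 0.46 below the soleus and the cerebellum 0.77 below the cerebrum (the same p, the smallest these tests gave). The ileum lay 0.21 above the jejunum (0.0026) and the non-glandular stomach 0.26 above the glandular (0.0010). The kidney cortex and the medulla did not differ in the family total, by contrast (0.08, adjusted p = 0.604, exact permutation).

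In the order of the ratio, 3 neighbours differed beyond their spread, namely the liver and the soleus (0.28, adjusted p = 0.0078), the brainstem and the heart (0.0436) and the heart and the whole kidney (0.0013, all exact permutation tests). From blood at the top down to the liver no neighbours did, although members of this chain farther apart did differ. Between tissues lay 83.9% of the spread of the log2 ratio, and 88.0% without the libraries out of place.

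miR-29a-3p and miR-29c-3p differ at base 10 alone. At the other cytosines of miR-29a-3p, at bases 4, 6, 7 and 17, a T was read in 0.0148% to 0.0839% of the reads, and miR-29c-3p made up 11.9% of the reads of both. The rates at these other bases do not measure misreads at base 10 itself. With exact reads of the mature sequences alone, 201 of 253 pairs differed.

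Among pairs of related miRNAs made from different loci, the ratio of miR-29a-3p to miR-29c-3p varied least over the tissues of the 8 pairs looked at. The SD of its 23 tissue means was 0.56 on the log2 scale, against 0.69 for miR-181a-5p and miR-181c-5p, 0.76 for miR-23a-3p and miR-23b-3p, 0.77 for miR-27a-3p and miR-27b-3p, 0.91 for miR-17-5p and miR-106b-5p, 1.01 for miR-99a-5p and miR-100-5p, 1.02 for miR-15a-5p and miR-15b-5p and 1.39 for miR-200b-3p and miR-200c-3p. These are descriptions, and no test was made between the pairs. The level itself varied far more, with an SD of 1.69 between the tissue means of the family total.

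The 5p arms of the miR-29b hairpins gave the second readout. It could be used in the 13 tissues with a median of at least 10 counts of both names together. Mean log2 ratios of miR-29b-1-5p, from chromosome 4, to miR-29b-2-5p, from chromosome 13, were 1.73 ± 1.18 in the soleus, 0.59 ± 0.542 in the heart, 0.39 ± 1.21 in the ovary, 0.38 ± 0.878 in the biceps and 0.34 ± 0.693 in the adrenal. The kidney medulla was at -0.03 ± 0.626, the whole kidney at -0.56 ± 0.561, the ganglia at -0.69 ± 0.302 and the kidney cortex at -0.75 ± 0.756. All 4 brain regions were lower still, with -0.98 ± 0.959 in the hippocampus, -1.28 ± 0.294 in the cerebrum, -1.55 ± 0.425 in the brainstem and -2.11 ± 0.449 in the cerebellum. Without the libraries out of place the hippocampus was at -1.51 ± 0.289, the ovary at 0.88 ± 0.562 and the adrenal at 0.24 ± 0.658.

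In the cerebellum the 10 samples held 26 to 83 counts of miR-29b-2-5p (median 56) and 5 to 22 of miR-29b-1-5p (median 13.5), and their log2 ratios lay between -3.17 and -1.64. In the soleus 0 to 11 counts of miR-29b-2-5p (median 5) stood against 5 to 26 of miR-29b-1-5p (median 14), and the log2 ratios lay between 0.55 and 4.86. These sets of values do not overlap, but the single samples rest on few counts, and the highest soleus value is that of the sample with 0 counts of miR-29b-2-5p.

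Of the 78 pairs of these tissues 45 differed (two-sided exact permutation test, adjusted over the pairs), and 56 did without the libraries out of place. The cerebellum lay 3.85 below the soleus and 2.70 below the heart (adjusted p = 7.0e-05 each, exact permutation). It was also 0.84 below the cerebrum (0.00015) and 0.56 below the brainstem (0.0121). The biceps lay 1.36 below the soleus (0.0043), while the kidney cortex and the medulla did not differ at the threshold (-0.72, adjusted p = 0.0524).

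Over the 13 tissue means their Pearson correlation was 0.146 and their Spearman correlation 0.132, and without the libraries out of place 0.211 and 0.187. Cerebellum and biceps had nearly the same ratio of miR-29a-3p to miR-29c-3p (5.23 and 5.18) but log2 ratios of the 5p arms of -2.11 and 0.38. The points share their libraries, and the 5p ratio carries the larger counting error.

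**Figure D3:**
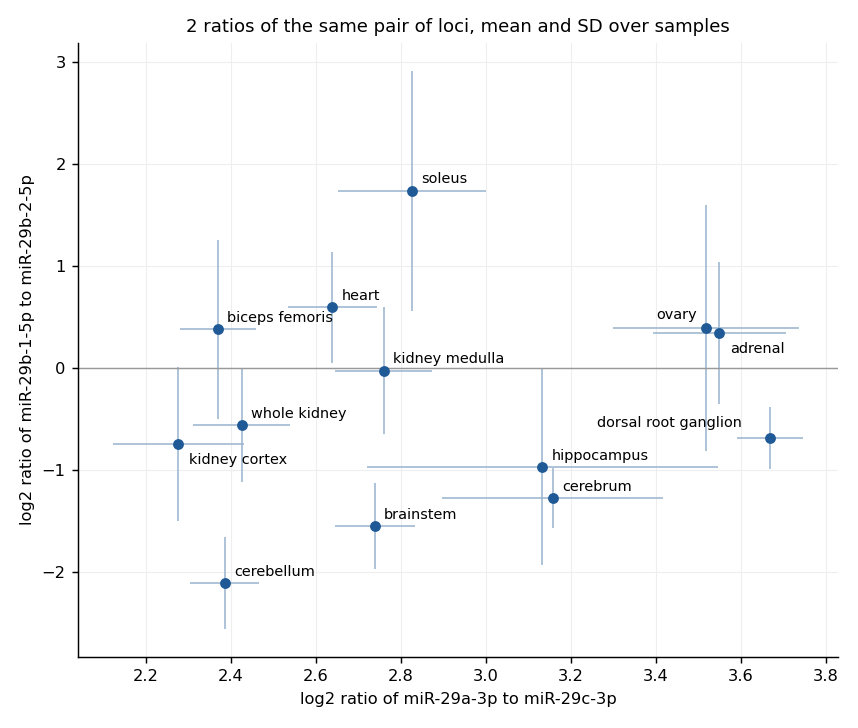
Mean log2 ratio of miR-29b-1-5p to miR-29b-2-5p (vertical) against the mean log2 ratio of miR-29a-3p to miR-29c-3p (horizontal) in 13 tissues, with bars of 1 SD over samples. The soleus is highest on the vertical axis (1.73) and the cerebellum lowest (-2.11), and tissues with like horizontal values spread over most of the vertical range.

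miR-29b-3p, the member that both loci encode, was a small part of the 3p arms, and the smallest in skeletal muscle and liver. It made up between 3.88% and 6.08% of the 3p arms in the brainstem (median 4.46%), between 0.741% and 1.54% in the biceps (median 0.941%), between 0.766% and 1.45% in the liver (median 1.09%) and between 0.946% and 1.45% in the soleus (median 1.14%). Every brainstem sample was above every sample of these tissues. The cerebrum had a mean of 3.89% ± 0.938, the kidney cortex 3.19% ± 0.381, the heart 2.64% ± 0.224, the cerebellum 2.55% ± 0.379 and the testis 1.82% ± 0.148. The mean of the duodenum, 3.92% ± 3.35, was 2.17% ± 0.229 without its libraries out of place, and that of the hippocampus rose from 3.52% ± 0.917 to 4.04% ± 0.378.

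Of the 253 pairs 141 differed in the log2 ratio of miR-29b-3p to the other 3p arms (two-sided exact permutation test, adjusted over the pairs). Where the same rats were compared, in sign flip tests with the rat as a block, 92 of 229 pairs differed. In these tests the pairs with ovary, uterus or testis share too few rats to pass. Without the libraries out of place the count was 161 of 253. The heart lay 1.19 above the soleus and the brainstem 2.08 above the liver (adjusted p = 5.2e-05 each, exact permutation). The kidney cortex lay 0.57 above the medulla (9.6e-05) and the brainstem 0.86 above the cerebellum (5.2e-05). The biceps and the liver, at the low end, did not differ from each other (adjusted p = 0.439, exact permutation).

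The star arms followed a pattern of their own. miR-29a-5p was 0.156% to 0.542% of both arms of miR-29a in the tissue means, and miR-29c-5p 1.86% to 9.37% of both arms of miR-29c. The biceps was highest for both, with 0.416% to 0.676% in single samples for miR-29a and 7.34% to 11.6% for miR-29c. The lowest mean for miR-29c was that of the pancreas (1.86% ± 0.507), where the RIN was also lowest and the libraries were re-extracted. The part of either in this value was not tested. The liver was at 2.63% ± 0.592, the soleus at 6.24% ± 1.66 and the brainstem at 4.96% ± 1.14.

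Fold changes of the single members came from a fit over all 1641 names that passed the filter (edgeR, quasi-likelihood test, upper quartile scaling), in which a tissue was set against the average of the 22 others. Of the 230 tests of 10 members in 23 tissues 114 were past an adjusted p of 0.05, where 34.7% of all tests over the names were. The 10 include composite names, among them miR-29a-3p;miR-29c-3p, of whose counts 86.5% came from the first lane with misread bases. In edgeR the members were called higher most often in heart and kidney, an order that did not hold under DESeq2. In the heart all 10 tested members rose, where 28.9% of all names did, and their median log2 fold change was 1.39, against 0.22 over all names. In the kidney medulla 9 of 10 rose (27.3% of all names), in the whole kidney 9 of 10 (23.8%), in the kidney cortex 8 of 10 (21.3%), in the cerebellum 7 of 10 (23.4%) and in the cerebrum 6 of 10 (24.0%). DESeq2 called 5 members higher in the heart, 1 in the kidney medulla, 3 each in the whole kidney and the kidney cortex, 7 each in the cerebellum, the brainstem and the duodenum, and 8 each in the cerebrum and the hippocampus. The median of all names in the heart moved with it, from 0.22 to -0.48. For DESeq2 and the other alternative settings the share of all names called is not given. Their counts, here and below, thus show only how calls shifted, not how members compare with all names.

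The 3p arms of miR-29a and miR-29c did not rise alike. In the kidney cortex miR-29c-3p had a log2 fold change of 1.38 ± 0.15 (SE) and miR-29a-3p of 0.45 ± 0.14. In the cerebellum the values were 1.31 ± 0.15 and 0.52 ± 0.14, and in the liver, by contrast, 1.34 ± 0.15 and 1.31 ± 0.13. Several of these calls depended on the settings. The call of miR-29a-3p in the kidney cortex was lost under DESeq2 (-0.16), with TMM factors (0.22), with no filter on low counts, without the 2 lanes with misread bases, without rat 2 and without rat 11. In the whole kidney it was lost under DESeq2 (-0.096) and with TMM factors (0.31). In the kidney medulla DESeq2 gave 0.14 for miR-29a-3p and 0.011 for miR-29b-3p, with neither called. In the liver it gave 0.28 for miR-29a-3p and 0.30 for miR-29c-3p, and both calls were lost. With no filter on low counts the call of miR-29a-3p in the cerebellum was lost.

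miR-29b-3p had its highest fold change in the cerebrum (1.71 ± 0.16 in edgeR), and in the liver its call was not past the threshold (6 of 10 members rose there, where 30.8% of all names did, and 1 fell, where 9.38% did). DESeq2 called 0 members higher and 3 lower in the liver, miR-29b-3p among them (-0.90).

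Whole blood stood at the other end. There 8 of 10 members fell, where 16.6% of all names did, with a median of -3.27 against 0.29 over all names. The fold changes were -2.97 ± 0.20 for miR-29a-3p, -3.57 ± 0.27 for miR-29b-3p and -4.04 ± 0.25 for miR-29c-3p. In the testis 5 of 10 fell (16.8% of all names), with -1.17 ± 0.24 for miR-29a-3p and -1.61 ± 0.29 for miR-29c-3p, and in jejunum and ileum 5 of 10 each (13.1% and 12.2% of all names). In the testis DESeq2 called 3 members lower and gave -0.23 for miR-29a-3p, whose call was lost. With no filter on low counts miR-29a-3p and miR-29b-3p lost their calls in jejunum and ileum. In biceps and soleus the members split: miR-29b-3p fell (-2.11 ± 0.23 and -1.47 ± 0.22), whereas miR-29c-5p rose (1.35 ± 0.17 and 0.68 ± 0.19).

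The other tissues had 0 to 8 members past the threshold. In the hippocampus 5 of 10 rose (28.9% of all names), in the duodenum 4 (30.7%) and in the brainstem 3 (22.3%). In the pancreas 5 rose (29.5%) and 3 fell (13.3%), in the soleus 2 rose (19.3%) and 3 fell (11.5%), and in the biceps 1 rose (18.3%) and 2 fell (13.2%). Of the reproductive tissues, 1 member rose in the ovary (19.6%) and 1 in the uterus (15.2%). In the adrenal 1 member fell (11.6%), in the ganglia 2 (3.78%) and in the non-glandular stomach 2 (9.02%), while in the glandular stomach 0 of 10 passed in edgeR (23.9% of all names did in either direction), with 1 at an unadjusted p under 0.05 and 3 lower in DESeq2. Without the libraries out of place 0 members rose and 2 fell in the duodenum, 5 rose in the hippocampus, 1 rose and 1 fell in the adrenal and in the uterus, 1 rose in the ovary and 4 fell in the non-glandular stomach. The 1 that rose in the ovary was the composite miR-29a-3p;miR-29c-3p (3.07), and no single name was called there. Composite names held up to 199 CPM in an ovary sample, against a median of 5.81. DESeq2 called 3 members higher in the adrenal and 0 lower, and 1 lower and 0 higher in the ovary and in the uterus.

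**Figure D4:**
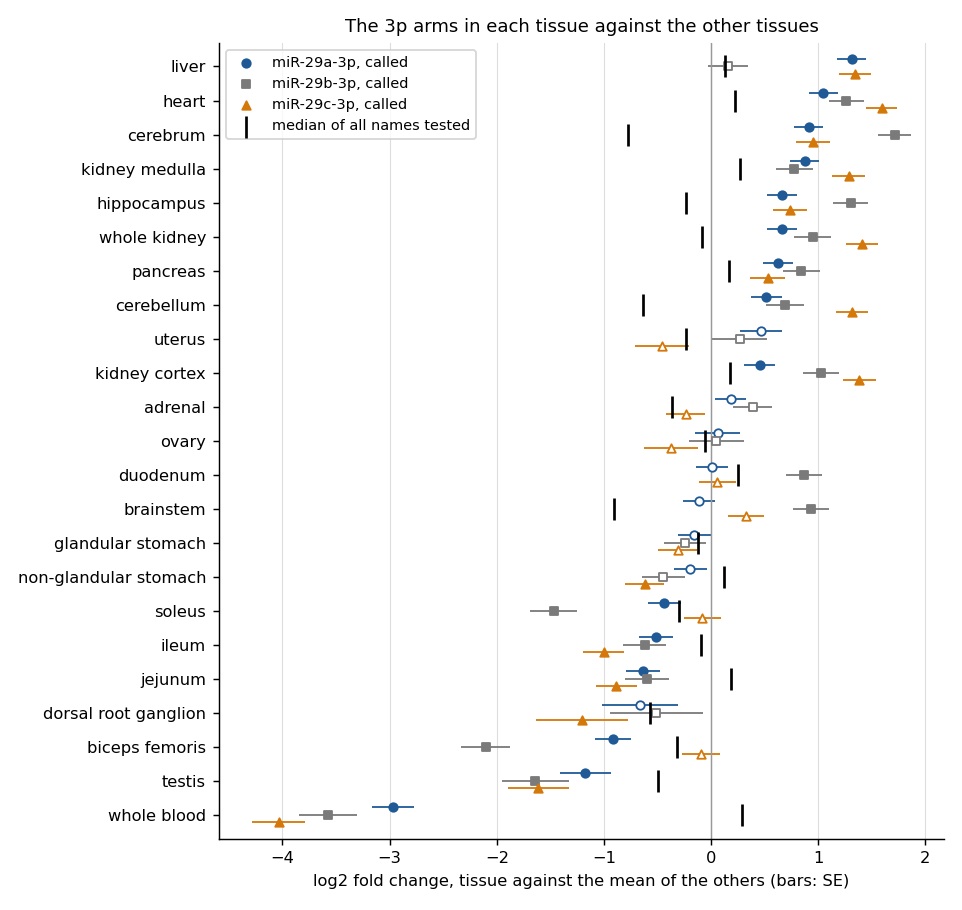
Log2 fold change of the 3p arms of a tissue against the average of the others (edgeR, horizontal axis, bars are SE), ordered by miR-29a-3p. Filled symbols passed an adjusted p of 0.05, open symbols did not, and black ticks give the median of all names tested. In the kidney cortex miR-29c-3p (1.38) lies to the right of miR-29a-3p (0.45), and in whole blood it lies to the left (-4.04 and -2.97).

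By member, miR-29c-5p had the most calls, 12 tissues higher and 5 lower of 23, where 34.7% of all tests over the names passed in either direction. miR-29b-3p had 10 and 6, miR-29a-3p, miR-29c-3p and miR-29b-2-5p 9 and 6 each, miR-29a-5p 6 and 3, and miR-29b-1-5p 5 and 3. The 5p arms of miR-29b differed in where they were called. miR-29b-2-5p rose in all 4 brain regions (1.43 to 1.75) and fell in the soleus (-0.81 ± 0.33). miR-29b-1-5p rose in the soleus (0.80 ± 0.25) and was not past the threshold in any brain region (-0.41 to 0.25). Both rose in the heart and the kidney, in the heart by 1.11 ± 0.27 and 1.70 ± 0.23. Of the 4 members called higher in the duodenum, miR-29b-3p was lower there without the libraries out of place (-0.51), and miR-29a-3p, miR-29b-3p and miR-29c-3p still rose in the hippocampus (0.73, 1.62 and 1.00).

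Reads of the family were further sorted by where they begin and end, for members with at least 100 counts in a sample and without the 2 lanes with misread bases. The start matters because a shift by a base changes the seed. The most counted reads are shown with bases 2 to 8 in capitals, as DNA letters.
miR-29a-3p, annotated start: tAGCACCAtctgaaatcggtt
miR-29a-3p, 1 base upstream: cTAGCACCatctgaaatcggtt
miR-29b-3p, annotated start: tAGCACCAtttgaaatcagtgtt
miR-29c-3p, annotated start: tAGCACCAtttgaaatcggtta
The upstream start was common in miR-29a-3p (12.8% of its counts) and miR-29b-3p (11.5%) and rare in miR-29c-3p (0.299%). Within samples miR-29a-3p exceeded miR-29c-3p in 18 of 19 tissues that could be tested (exact sign flip test over rats, adjusted p under 0.05). Ovary, uterus and testis, where tested, hold too few rats for this test to reach that threshold. As the hairpins above show, the base before the 3p arm is c in all of them.

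The share of the upstream start also differed between tissues. For miR-29a-3p it was 14.7% to 17.2% in the samples of the brainstem (median 15.4%), 5.88% to 7.39% in the liver (median 6.71%) and 4.77% to 6.81% in the pancreas (median 5.93%). Liver and pancreas were separate from the brainstem in every sample. For miR-29b-3p the mean was 17.9% ± 2.26 in the cerebellum (n = 10), 16.3% ± 3.47 in the whole kidney (n = 9), 15.3% ± 2.35 in the heart (n = 8), 9.46% ± 1.42 in the cerebrum (n = 9), 5.71% ± 1.85 in the liver (n = 8) and 3.33% ± 0.940 in the pancreas (n = 9).

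miR-29a-3p and miR-29b-3p were ordered differently by tissue. Within samples the upstream start was more common in miR-29a-3p than in miR-29b-3p in 5 of 13 tissues (adrenal, brainstem, cerebrum, hippocampus and pancreas) and less common in 5 (cerebellum, heart, kidney cortex, kidney medulla and whole kidney), each past an adjusted p of 0.05 in exact sign flip tests. The adrenal and the hippocampus include their libraries out of place. The share of miR-29a-3p minus that of miR-29b-3p was -5.11 percentage points in the cerebellum, below 0 in all 10 rats, and 4.79 in the brainstem, above 0 in all 10. Of pairs of tissues, 126 of 253 differed for miR-29a-3p, 67 of 105 for miR-29b-3p and 9 of 210 for miR-29c-3p (two-sided exact permutation tests, adjusted over the pairs of each member). With all lanes the counts were 89 of 253, 91 of 153 and 13 of 231.

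**Figure D5:**
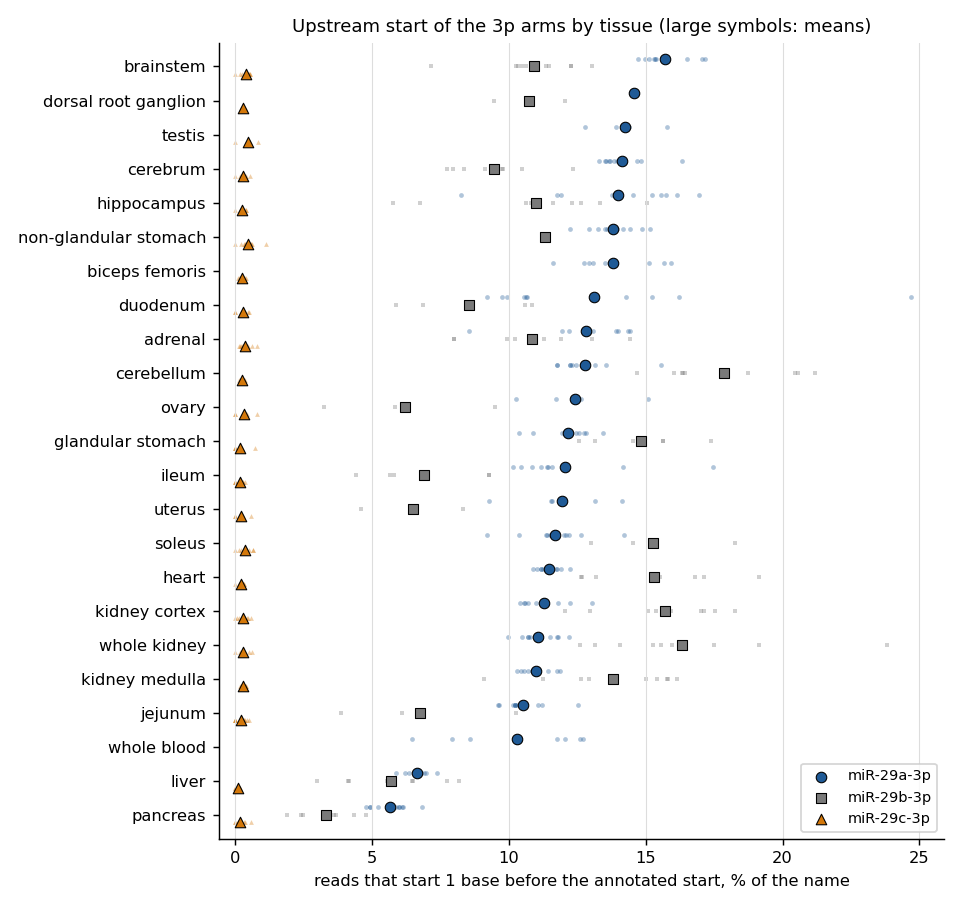
Share of the reads of each 3p arm that start 1 base before the annotated start (horizontal axis, %), by tissue, without the 2 lanes with misread bases. Small symbols are samples with at least 100 counts and large symbols their mean. miR-29c-3p reaches at most 1.11% in a sample, and miR-29b-3p lies to the right of miR-29a-3p in cerebellum, heart and kidney and to the left in the other brain regions.

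At the 3′ end, miR-29c-3p carried an untemplated A in 13.0% of its counts, miR-29a-3p in 4.89% and miR-29b-3p in 2.58% (all lanes). The A tail was more common in miR-29c-3p than in miR-29a-3p within samples in 18 of 19 tissues (exact sign flip tests, as above). In tissue means it was highest for miR-29c-3p in the liver (16.9% ± 1.39), the cerebellum (16.6% ± 0.769) and the kidney medulla (16.5% ± 1.48), and lowest in the soleus (9.30% ± 1.57). The liver exceeded the soleus by 7.58 percentage points and the cerebellum the cerebrum by 4.93 (adjusted p = 0.00011 each, exact permutation). Both arms end in A, so an A added to a read 1 base short of this end is not counted as a tail. Reads of miR-29c-3p also reached the annotated 3′ end more often than those of miR-29a-3p in 18 of 19 tissues (exact sign flip tests). The part of this in the tails was not tested.

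The share of miR-29a-3p reads that reached the annotated 3′ end or went beyond it was 52.9% ± 1.61 in the biceps, 48.4% ± 2.20 in the liver and 31.0% ± 0.904 in the cerebrum. The biceps exceeded the cerebrum by 21.9 percentage points (adjusted p = 3.5e-05, exact permutation), and their samples did not overlap. For miR-29c-3p the biceps was again highest (76.3% ± 2.50, n = 8) and the pancreas lowest (45.1% ± 2.90). The pancreas had the lowest RIN and re-extracted libraries, and the part of either in the read ends was not tested.

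The 5p arms had read starts that differ from the RefSeq entries. Of the counts of miR-29b-1-5p, 95.5% began 5 bases before the RefSeq start, so that the most counted read is gCTGGTTTcatatggtggtttaga. Its bases 2 to 8 are the same as the first bases of the top read of miR-29b-2-5p, cTGGTTTCacatggtggcttaga. Of the counts of miR-29b-2-5p 86.6% began at the RefSeq start. A further 7.35% began 1 base upstream and so have the same bases 2 to 8 as the miR-29b-1-5p read. For miR-29c-5p 51.3% of the counts began at the RefSeq start and 37.6% 2 bases downstream, as in aCCGATTTctcctggtgttcaga. This downstream start was 45.0% ± 6.10 in the biceps (n = 4) and 32.9% ± 3.94 in the cerebellum (n = 8), which differed (adjusted p = 0.015, exact permutation).

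Male and female rats were compared in the 19 tissues from both sexes. As a mean over these tissues per rat, the family total of females was 0.07 below that of males on the log2 scale (5 against 5 rats, two-sided exact permutation p = 0.183) and the log2 ratio of miR-29a-3p to miR-29c-3p 0.03 above (p = 0.143), where the smallest p possible is 0.00794. Within single tissues 0 of 19 were past the adjusted threshold in either measure, with 3 and 5 at an unadjusted exact permutation p under 0.05.

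In the edgeR fit over 1122 names, 3 of 190 tests of members were past the threshold, where 1.49% of all tests were, and all 3 were in whole blood. There miR-29a-3p was lower in females by 1.19 ± 0.23 on the log2 scale (edgeR adjusted p = 4.5e-05), miR-29b-3p by 1.29 ± 0.41 (0.0496) and miR-29c-3p by 2.07 ± 0.31 (9.2e-08), and 3.12% of all names fell likewise. The call of miR-29b-3p was lost under DESeq2, with no filter on low counts, without the 2 lanes with misread bases and in 7 of 10 fits that left out 1 rat (2, 3, 4, 6, 9, 10 or 11). That of miR-29a-3p was lost with no filter. Male rat 6 held 15.1 CPM of miR-29c-3p, against 1.01 to 2.08 in the other males, and without it the difference of miR-29c-3p was -1.32 (edgeR adjusted p = 0.0111). The family total of the 5 female samples was 8.12, 17.6, 29.3, 32.9 and 39.4 CPM and that of the 5 male samples 36.0, 38.4, 42.8, 56.9 and 144 CPM. The groups overlap by 1 female sample above 2 male samples, and the exact permutation test of this total gave p = 0.0238 before adjustment and 0.151 after it over 19 tissues.

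Among other measures of the blood samples, the RIN differed between the sexes, while the summed cell markers did not. The RIN was 7.4 to 7.7 in females and 8.0 to 8.4 in males, with no overlap (exact permutation p = 0.00794). The summed level of the 4 leukocyte markers on the list (miR-142-3p, miR-142-5p, miR-223-3p and miR-150-5p) was 483 to 1706 CPM in females and 994 to 2302 in males (p = 0.135), and that of the red cell markers miR-451-5p and miR-144-3p 2368 to 6173 and 4793 to 9169 (p = 0.127). All the markers were above 0. By median, miR-150-5p was higher in females (285 against 225 CPM) and the other markers were lower. Per 1000 counts of the leukocyte markers, the family had 16.8 to 23.1 counts in females and 22.8 to 62.6 in males (p = 0.0238). The part of RNA integrity and of the blood cells in the sex difference was not tested. The counts of miR-29b-3p and miR-29c-3p were at most 14 and 95 in these samples, and in 1 female sample miR-29b-3p was at 0, which allows up to 0.518 CPM by counting error alone.

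The names whose tissue pattern was most like that of the family were let-7g-5p (Spearman correlation 0.926 over the 23 tissue means of log2(CPM + 1)), let-7a-5p (0.907), miR-1843-5p (0.903), let-7f-2-3p (0.896) and miR-1843-3p (0.895), among 701 single names compared. Without the libraries out of place the 5 were let-7f-2-3p (0.941), miR-361-3p (0.923), miR-872-3p (0.910), let-7a-5p (0.903) and let-7g-5p (0.9002). With the log2 ratio of miR-29a-3p to miR-29c-3p the strongest correlations were negative, with miR-653-5p (-0.822), miR-30e-5p (-0.816), miR-30c-5p (-0.815), miR-653-3p (-0.801) and miR-30d-5p (-0.768), and the highest positive ones were those of miR-130b-3p (0.565), miR-2137 (0.509), miR-3473 (0.481), miR-215 (0.480) and miR-223-5p (0.390). The points of these correlations share their libraries and depth.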

How the data were processed

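Small RNA was sequenced from tissues of naive rats. The authors trimmed adapters with cutadapt 1.4.1, discarded short reads and reads with N, collapsed identical reads and assigned them to miRBase and predicted miRNAs with miRDeep2, and deposited raw counts per run, by name and by isomiR. Of 458 runs, 14 repeats of a lane were set aside, and the rest were summed to 207 samples. Groups came from the labels.

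Family totals were tested as log2(CPM + 1) and ratios as log2 with 0.5 counts added, with two-sided exact permutation tests over samples and Benjamini-Hochberg adjustment over the pairs of tissues. For 10 against 10 samples the smallest p is 1.083e-05. Members were read from edgeR 4.0.16 fits (R 4.3.3) over all names past filterByExpr, with upper quartile scaling, and DESeq2 1.42.0 was an alternative. Scripts were tested on simulated data. Libraries were called out of place when their profile correlated better with another tissue by more than 0.05.

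The members and lists were chosen with earlier results of these data known. Outside the family, the names given are the 5 most alike by Spearman correlation, and fixed locus pairs. Samples of 1 rat share its number in the labels. The median correlation of deviations of the same rat in different tissues was 0.00881, against -0.00531 for different rats. The p-values measure the spread between rats, or between pools for the ganglia. Limits for 0 counts (3 counts) cover counting error only.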

Additional observations from a re-analysis of the deposited data

Results flagged for a closer look

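Of 66 groups of 4 to 10 samples looked at, 7 held a sample far from the others by Dixon's 95% limits. Chance alone gives such a sample in about 1 group in 20, or 3.3 groups here. These were 5 different samples, of which 2 are libraries nearer to another tissue, namely adrenal rat 8, with a family total of 10.32 on the log2(CPM + 1) scale, and duodenum rat 7, with a log2 ratio of miR-29b-3p to the other 3p arms of -2.751.

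Cerebrum rat 9 stood apart in 3 measures. Its family total was 13.25, its log2 ratio of miR-29a-3p to miR-29c-3p 3.884 and its log2 ratio of miR-29b-3p to the other 3p arms -6.104. The last ratio was also apart in brainstem rat 11, at -3.95, and in heart rat 10, at -5.536.

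The precursor entries, left out by the rule, held counts as well. There were 457 for mir-29b-1, 76 for mir-29b-2, 13 for mir-29c and 8 for mir-29a, 554 in all, in 166 of 207 samples.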

How the results depend on the processing

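With the rat as a replicate block, in sign flip tests over shared rats, 139 of 229 pairs of tissues differed in the family total, 138 of 229 in the ratio of miR-29a-3p to miR-29c-3p, 39 of 66 in the 5p ratio of miR-29b and 92 of 229 in the share of miR-29b-3p. Pairs with the ovary, uterus or testis share only 5 rats, too few for this test to reach 0.05, so none could be called. In the edgeR fit with the block 110 of 220 tests of members were past the threshold, and 114 of 220 without it on the same samples. Leaving out each rat in turn gave 190 to 198, 194 to 203, 43 to 57 and 125 to 146 pairs. Tests of members past the threshold then numbered 109 to 119 between tissues and 2 to 6 between the sexes (6 without rat 7). The mean sex difference of the total then ranged from -0.0875 to -0.0362, and that of the ratio from 0.0202 to 0.0461, with an exact permutation p of 0.0397 without rat 2. No tissue passed in either measure in any of these. Between the sexes, TMM factors gave 5 tests of members past the threshold, DESeq2 10, and no filter on low counts 13 of 266. No share of all names is given for these settings. In the duodenum miR-29a-3p was called lower in females with TMM factors (log2 difference -1.25) and DESeq2 (-0.88), and the value was 0.12 without the libraries out of place. The 5p ratio of miR-29b had 17 of 28 pairs with a minimum of 30 counts and 0 of 6 in the runs of the flow cell shared by all libraries (fewer tissues pass). The start of miR-29c-5p had 53 of 105 pairs with a minimum of 30. miR-29a-3p turned to -0.158889 in the kidney cortex and to -0.0961 in the whole kidney under DESeq2, and miR-29b-3p to -0.513 in the duodenum without the libraries out of place. For the total, 42 called pairs changed sign with upper quartile scaling, 16 with TMM and 14 without the most counted name. With TMM factors miR-29a-3p (0.70) and miR-29c-3p (1.13) were called higher in the brainstem. DESeq2 also called miR-29a-3p higher there (0.89), whereas it was called lower without predicted and precursor names (-0.29). The direction of its call in the brainstem thus depended on the setting. The cause of these changes was not tested. Of 1371 fold changes of miR-29a-3p, miR-29b-3p and miR-29c-3p under alternatives, between tissues or sexes, 1293 stayed called or not called as before. Direction was not compared where the edgeR fit gave no call. Of 1505 tissue means 55 moved beyond 1 SD. Without re-extracted libraries the calls of miR-29a-3p in the soleus, miR-29b-3p in the jejunum and miR-29c-3p in the ganglia were lost. The lanes with misread bases were left out as an alternative chosen after seeing the data. Depth limits the 5p arms, whole blood and testis most.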
